A study of Canis lupus familiaris with 186 samples.

Results

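The genes described here encode the subunits of the vacuolar H+-ATPase (V-ATPase) and the cathepsins, measured in primary osteosarcomas of dogs. They were chosen by symbol, as every gene named ATP6V0 or ATP6V1 followed by a subunit letter and an optional digit, and every gene named CTS followed by a letter, without CTSK, a textbook osteoclast protease, and CTSW, a gene of cytotoxic lymphocytes. The rule found 34 of the 37952 genes in the deposited table, of which 22 are V-ATPase subunits and 12 are cathepsins. A filter on low counts was passed by 27 of the 34, namely 17 subunits and 10 cathepsins, out of 13422 genes in all. The 7 genes that did not pass are ATP6V1B1, ATP6V1C2, ATP6V1E2, ATP6V1G2, ATP6V1G3, CTSE and CTSG.

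The tumors came from 186 pet dogs in the trials COTC021 and COTC022, with 93 dogs from each. All tumors are labelled as primary osteosarcoma and, by the study's methods, were limb tumors of previously untreated dogs that had the affected limb amputated, so that the trial drugs followed. Each library is bulk RNA of 1 dog's tumor, and no breed, age or genotype entered a group. No normal bone or other control tissue was analysed here, and the trial is the only grouping that the labels give.

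The V-ATPase is a rotary proton pump. Its V1 sector, in the cytosol, splits ATP, and its V0 sector, in the membrane, carries protons across. It acidifies lysosomes in all cells, and in the osteoclast it is also placed in the ruffled border, where it acidifies the space above bone so that mineral dissolves. Cathepsins are proteases that mostly work in acid compartments. Macrophages hold many lysosomes as well, so both cell types can contribute lysosomal transcripts to a bone tumor. ACP5, which encodes the tartrate-resistant acid phosphatase of osteoclasts, and CD163, which encodes a scavenger receptor of macrophages, served as markers of the 2 cell types. GS-1 is a signature from earlier work that the study applied, and 27 of its genes, mostly genes of immune cells, were used here.

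The libraries held between 6587631 and 27420857 expected counts (median 10797162). The names of 50 count columns carry a doubled _ character, and these libraries were deeper, with a median of 19440450 counts against 9851681 in the other 136. They included 18 tumors of COTC021 and 32 of COTC022, so slopes were also fitted within each trial and within each of these groups of libraries. No pair of libraries was a duplicate, the highest correlation between libraries being 0.964. ACP5 ranged from 1.52 to 18680 CPM (counts scaled to the library total), with 1511 as the median, and CD163 from 2.76 to 1827, with a median of 58.1. Both markers were counted in every tumor. ACP5 and CD163 showed no detectable relation to each other on the log2 scale (Pearson's r = -0.0029, permutation p = 0.968, Spearman's rho = -0.066, permutation p = 0.374, n = 186). Without the 2 tumors farthest from the median of ACP5, r was -0.036, and within trials it was 0.0076 in COTC021 and -0.0024 in COTC022. Among the 50 deeper libraries r was -0.11, and among the other 136 it was 0.032.

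The labelled tumor type was checked against marker lists. The osteoblast list summed to between 939 and 114903 CPM, with a median of 25191, and all 10 of its genes were counted in most tumors. Of the 16 osteoclast and 16 macrophage markers, 15 and 16 passed the filter. The summed osteoclast markers ranged from 253 to 40795 CPM and the summed macrophage markers from 141 to 9602, so the content of both cell types, as read from their transcripts, differed widely between tumors. In bulk RNA, fewer cells of a type and less RNA per cell cannot be told apart.

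The levels of the genes are first given as CPM of the library total, without correction for transcript length, so they may be compared between tumors but not between genes. In the membrane sector, ATP6V0C, which encodes the main proteolipid of the proton-carrying ring, ranged from 93.0 to 1249 CPM, with a median of 352. ATP6V0B, a second ring subunit, had a median of 176 CPM and ranged from 39.3 to 503. ATP6V0D1, the widely expressed form of subunit d that joins the ring to the central stalk, ranged from 54.9 to 337 CPM, with a median of 125. All 3 were counted in every tumor and varied within narrow limits compared with the isoform described next.

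ATP6V0D2, the form of subunit d known for its high expression in osteoclasts, had a median of 79.9 CPM and ranged from 0.097 to 477. The gene lies at chr29:32980580-33022805 in the RefSeq annotation of UU_Cfam_GSD_1.0, the assembly of all positions given here. On the log2 scale its SD over the tumors was 2.48, against 0.42 for ATP6V0D1. It was also the most variable of the 27 genes. At 10 or more counts it was detected in 174 of 186 tumors, and ATP6V0A4 in 148 of 186. ATP6V0A4, the form of subunit a known from the acid-secreting cells of the kidney, had a median of 2.99 CPM, ranged up to 26.0 and was at 0 in 5 tumors. Its SD was 1.70. The other forms of subunit a, ATP6V0A1 and ATP6V0A2, which are expressed in many tissues, had medians of 72.2 and 33.9 CPM and SDs of 0.46 and 0.47.

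In the catalytic sector, ATP6V1A, the subunit that splits ATP, ranged from 22.2 to 608 CPM, with a median of 148. ATP6V1B2, its partner in the catalytic ring, ranged from 37.9 to 1212 CPM, with a median of 305. These 2 genes had SDs of 0.96 and 0.97. The stalk subunits ATP6V1C1, ATP6V1D, ATP6V1E1, ATP6V1F, ATP6V1G1 and ATP6V1H were counted in all tumors, with medians between 85.3 CPM for ATP6V1C1 and 242 CPM for ATP6V1E1. Their SDs lay between 0.47 for ATP6V1D and 0.74 for ATP6V1C1.

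The alternative forms of the V1 subunits were low. ATP6V1B1, a form known from kidney, was at 0 counts in 106 tumors and reached 12.2 CPM in the highest. ATP6V1E2, known from testis, was at 0 in 167 tumors, and ATP6V1G3, known from kidney, in 170. ATP6V1G2, known from brain, had a median of 1 count and a highest value of 15. ATP6V1C2 had a median of 9 counts and reached 10 or more in 92 tumors. These levels are at the edge of what this depth can show, and a count of 0 is not absence.

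Among the cathepsins, CTSB, a cysteine protease, ranged from 409 to 8918 CPM, with a median of 1215. CTSD, the main aspartic protease of lysosomes, ranged from 104 to 2348 CPM, with a median of 532. CTSS, a cysteine protease of antigen-presenting cells that trims the invariant chain of MHC class II, ranged from 17.3 to 2469 CPM, with a median of 144. The cathepsins with the widest spread on the log2 scale were CTSS, CTSH and CTSC, with SDs of 1.39, 1.02 and 1.02. CTSC, which activates the serine proteases of granules, had a median of 286 CPM, and CTSH, a cysteine aminopeptidase, one of 124 CPM. CTSE, an aspartic protease, had a median of 2 counts, and CTSG, a serine protease of neutrophil granules, one of 3 counts. CTSG still reached 24.6 CPM in 1 tumor.

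**Figure D1:**
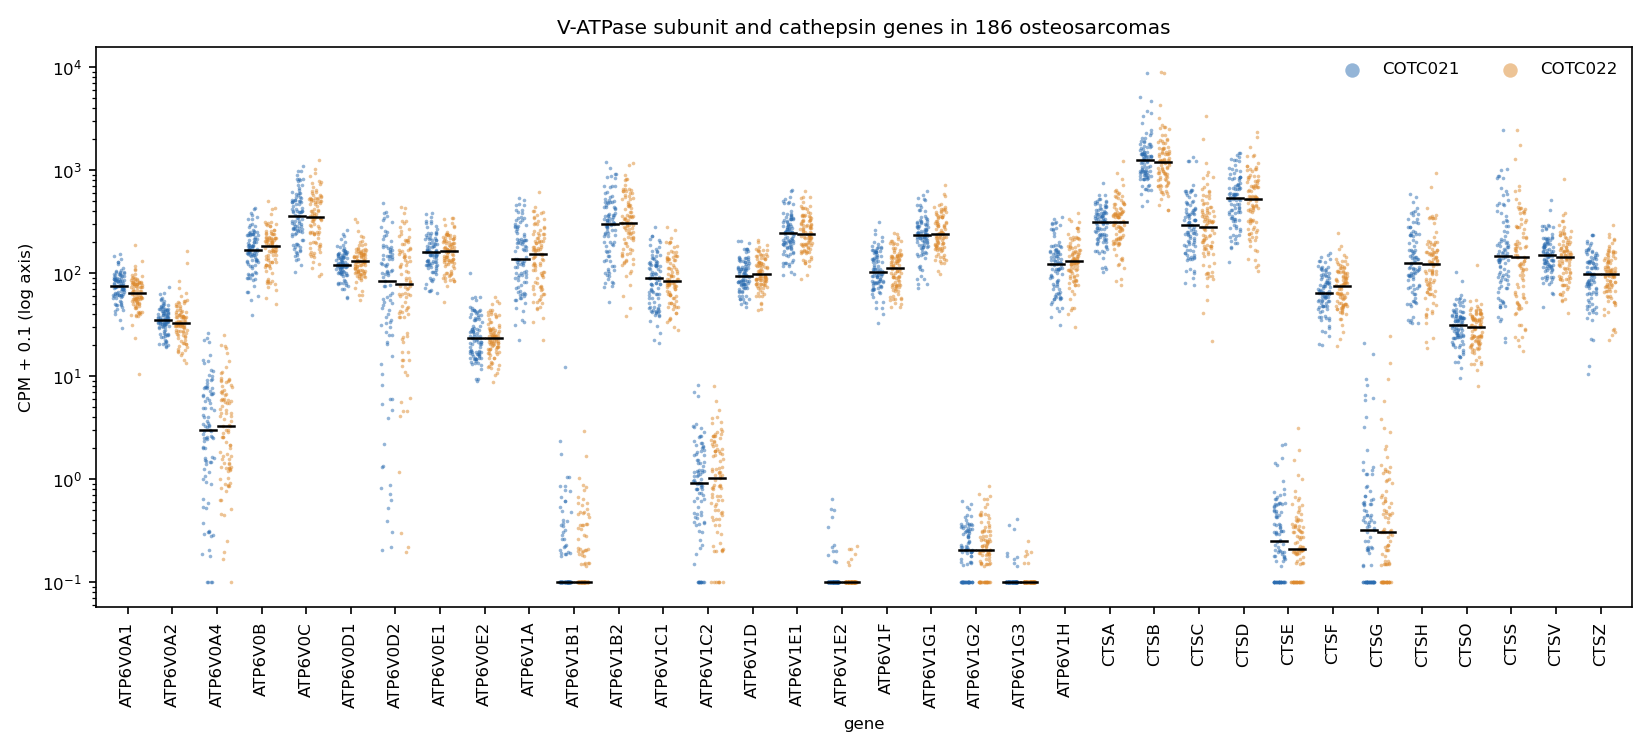
Levels of the 34 genes in 186 tumors, as CPM of the library total plus 0.1 on a log axis, with 1 point per tumor, COTC021 in blue and COTC022 in orange, and a black bar at each group's median. ATP6V0D2 and ATP6V0A4 spread over more than any other gene that passed the filter, and the points of the 2 trials overlap for every gene.

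The first comparison asked whether the genes differed between the trials. ATP6V0D2 ranged from 0.102 to 477 CPM in COTC021, with a median of 83.1, and from 0.097 to 437 CPM in COTC022, with a median of 78.0. CTSB had medians of 1270 CPM in COTC021 and 1194 CPM in COTC022, and CTSS had medians of 145 and 143 CPM. The ranges of the trials overlapped for each of these genes. None of the 27 genes passed an adjusted p of 0.05 with limma-voom, where 0.0149% of all genes were called. At an unadjusted p under 0.05 the counts were 1 of the 27 and 1332 of all 13422 genes, which is 9.92%. With edgeR's quasi-likelihood fit and with DESeq2 the count was also 0 of 27. The gene with the smallest p was ATP6V0A1, with medians of 74.2 CPM in COTC021 and 64.3 CPM in COTC022 (log2 difference of COTC022 minus COTC021 -0.23 ± 0.066 SE, limma-voom adjusted p = 0.164).

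The main comparison asked which of the genes followed the osteoclast marker and which the macrophage marker across tumors. The model held the trial, ACP5 and CD163 together, and a slope is the log2 change of a gene per SD of the marker at an equal level of the other marker. The SD of ACP5 was 2.46 and that of CD163 was 1.66 on the log2 scale, so the steps differ in size. With ACP5, 21 of the 27 genes rose and 1 fell, whereas 15% of all genes tested rose and 17.1% fell, which is 32% in either direction. The median slope was 0.35 over the 27 genes and -0.015 over all genes tested. With CD163, 17 rose and 1 fell, against 20.1% and 22.2% of all genes, which is 42.3% in either direction, with medians of 0.10 and -0.015. Of the 17 V-ATPase subunits, 15 rose with ACP5 and 8 with CD163. Of the 10 cathepsins, 6 rose with ACP5 and 9 with CD163.

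Every V1 subunit that passed the filter rose with ACP5. ATP6V1A rose by 0.84 ± 0.040 log2 per SD (adjusted p = 4.47e-48, limma-voom) and ATP6V1B2 by 0.80 ± 0.040 (adjusted p = 1.46e-45). The other V1 subunits had slopes from 0.30 for ATP6V1D to 0.60 for ATP6V1C1. In the tumor with the lowest ACP5, ATP6V1A stood at 33.1 CPM and ATP6V1B2 at 59.3 CPM. In the tumor with the highest ACP5 they stood at 341 and 610 CPM. Slopes of the V1 subunits on CD163 lay between -0.06 for ATP6V1F and 0.12 for ATP6V1A. ATP6V1A, ATP6V1B2, ATP6V1G1 and ATP6V1H passed with CD163 (adjusted p = 0.00872, 0.0320, 0.0372 and 0.0104), and the other V1 subunits did not.

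In V0, the isoforms of 1 subunit behaved differently. ATP6V0D2 had the steepest slope on ACP5 of the 27 genes, at 2.31 ± 0.079 log2 per SD (adjusted p = 4.1e-68), and a slope on CD163 of 0.12 ± 0.053 that did not pass the test (adjusted p = 0.0577). It stood at 0.117 CPM in the tumor with the lowest ACP5 and at 231 CPM in the tumor with the highest. ATP6V0D1 had slopes of 0.11 ± 0.029 on ACP5 and 0.12 ± 0.029 on CD163, both of which passed (adjusted p = 0.00192 and 0.000304). The correlation between ATP6V0D1 and ATP6V0D2 was weak (r = 0.27, permutation p = 0.00036, rho = 0.31, permutation p = 3e-05, n = 186), with r = 0.27 without the 2 tumors farthest from the median of ATP6V0D1, 0.26 in COTC021 and 0.27 in COTC022. Among the 50 deeper libraries r was 0.22, and among the other 136 it was 0.28. After the trial, ACP5 and CD163 were taken out, r was 0.022.

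Among the forms of subunit a, ATP6V0A4 rose with ACP5 by 1.56 ± 0.106 log2 per SD (adjusted p = 5.51e-31). It stood at 0 CPM in the tumor with the lowest ACP5 and at 3.07 CPM in the tumor with the highest, near its median of 2.99. Its slope on CD163 was 0.00 ± 0.081 (adjusted p = 0.975). ATP6V0A1 and ATP6V0A2 had slopes on ACP5 of 0.00 ± 0.032 and -0.03 ± 0.034, neither of which passed (adjusted p = 0.926 and 0.478). Both rose with CD163, by 0.14 ± 0.032 and 0.10 ± 0.034 (adjusted p = 0.000177 and 0.0125). Per SD of CD163 over all tumors, ATP6V0A1 rose by 0.33 ± 0.058 among the 50 deeper libraries (adjusted p = 2.94e-05), while its slope among the other 136 was 0.06 ± 0.036 (adjusted p = 0.207). The gap between them was not tested. That of ATP6V0A2 passed in neither trial and in neither group of libraries when each was fitted alone, with adjusted p from 0.0751 to 0.267. ATP6V0A4 was uncorrelated with ATP6V0A1 (r = 0.0051, permutation p = 0.946, rho = -0.017) and with ATP6V0A2 (r = -0.071, permutation p = 0.339, rho = -0.064), while ATP6V0A1 and ATP6V0A2 had r = 0.22 (permutation p = 0.00318) and rho = 0.20 (permutation p = 0.00811). The fourth form of subunit a, encoded by TCIRG1 and known as the osteoclast form, is outside the rule and rose with ACP5 by 1.02 ± 0.044 and with CD163 by 0.19 ± 0.040. ATP6V0A4 is also known from epithelium. Of 6 epithelial and kidney markers, FOXI1 and SLC4A1 were at 0 in most tumors, only CDH1 passed the filter, with a slope on ACP5 of 0.50 ± 0.174 (adjusted p = 0.0193), and the summed list ranged from 0.374 to 485 CPM. Its part in the slope of ATP6V0A4 was not tested.

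The ring subunits ATP6V0C and ATP6V0B rose with ACP5 by 0.58 ± 0.034 and 0.42 ± 0.035, and did not pass with CD163 (adjusted p = 0.125 and 0.183). Of the small subunit e, ATP6V0E1 rose with both markers, by 0.36 ± 0.028 and 0.13 ± 0.028. ATP6V0E2, a second form of subunit e, rose with ACP5 by 0.12 ± 0.044 (adjusted p = 0.0271) and had a slope on CD163 of -0.10 ± 0.042 that did not pass (adjusted p = 0.0503). Its slope on ACP5 passed in neither trial and in neither group of libraries when each was fitted alone, with adjusted p from 0.0633 to 0.404. The 2 forms of e had r = 0.16 with each other (permutation p = 0.026) but rho = 0.11 (permutation p = 0.145), so the rank correlation did not pass. Over the 5 pairs of isoforms, r ranged from -0.071 to 0.27, whereas the median over all 136 pairs of V-ATPase genes was 0.65.

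**Figure D2:**
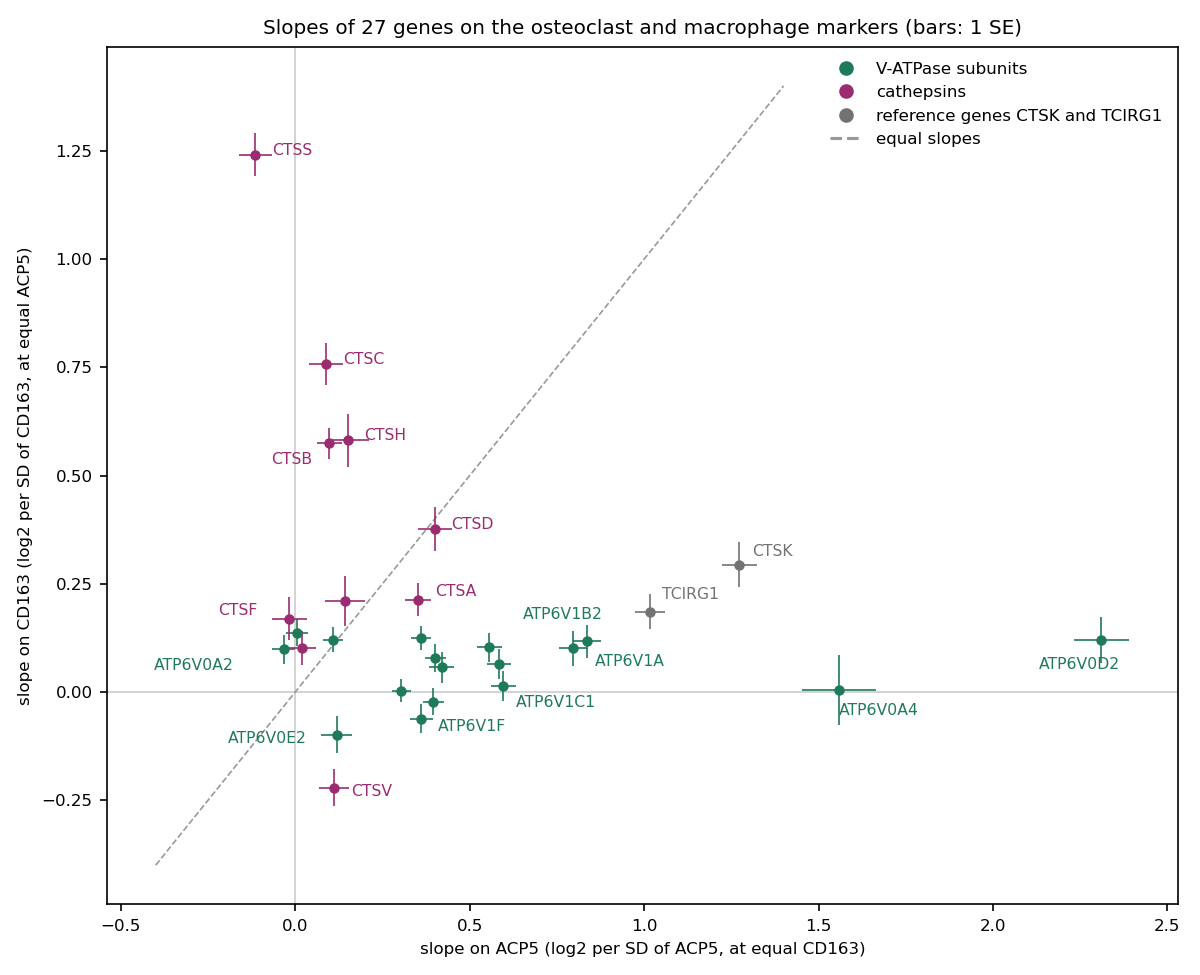
Slope of each of the 27 genes on ACP5 (horizontal) and on CD163 (vertical), in log2 per SD of the marker, with bars of 1 SE, V-ATPase subunits in green, cathepsins in purple and the reference genes CTSK and TCIRG1 in grey. ATP6V0D2 lies at 2.31 on ACP5 and 0.12 on CD163, CTSS at -0.11 and 1.24, and CTSD close to the dashed line of equal slopes.

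The cathepsins were spread over both markers. CTSS rose with CD163 by 1.24 ± 0.049 log2 per SD (adjusted p = 3.67e-59), the steepest slope on CD163 of the 27 genes. It stood at 17.3 CPM in the tumor with the lowest CD163 and at 1775 CPM in the tumor with the highest. It was also the only gene of the 27 that fell with ACP5, by 0.11 ± 0.047 with an adjusted p of 0.0485, a call that was lost in 9 of 14 alternatives, over which the adjusted p ranged from 3.22e-22 to 0.447. CTSC rose with CD163 by 0.76 ± 0.049, CTSH by 0.58 ± 0.061 and CTSB by 0.57 ± 0.036. CTSB and CTSH passed with ACP5 as well, at 0.10 ± 0.036 and 0.15 ± 0.061 (adjusted p = 0.0247 and 0.0464), and CTSC did not (0.09 ± 0.048, adjusted p = 0.154). In the 50 deeper libraries the slopes of CTSB and CTSH on ACP5 were -0.0058 and -0.0084, per SD of ACP5 within those libraries.

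CTSD and CTSA rose with both markers. CTSD rose by 0.40 ± 0.049 with ACP5 and by 0.38 ± 0.050 with CD163 (adjusted p = 2.89e-12 and 5.22e-11). CTSA, a serine carboxypeptidase that also protects lysosomal galactosidase, rose by 0.35 ± 0.037 and 0.21 ± 0.037 (adjusted p = 5.99e-16 and 6.34e-07). CTSZ, a carboxypeptidase, passed with both markers too, at 0.14 ± 0.057 and 0.21 ± 0.057 (adjusted p = 0.0467 and 0.00149), although its slope on ACP5 was -0.15 in the 50 deeper libraries, per SD within them. CTSF and CTSO, which are cysteine proteases, passed with CD163 only, at 0.17 ± 0.050 and 0.10 ± 0.040 (adjusted p = 0.00339 and 0.0305). CTSV, a relative of cathepsin L, fell with CD163 by 0.22 ± 0.043 (adjusted p = 5.8e-06) and rose with ACP5 by 0.11 ± 0.043 (adjusted p = 0.0331). Fitted alone, neither trial nor the 50 deeper libraries gave a call for its rise with ACP5 (adjusted p = 0.325, 0.0955 and 0.766). The fall with CD163 did not pass in the 50 deeper libraries (adjusted p = 0.127). Reads of CTSV may be shared with near-identical genes, such as CTSL3, so its value is uncertain.

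CTSK and TCIRG1, outside the rule, show the scale of these slopes. CTSK, which encodes the collagen-degrading protease, ranged from 62.4 to 6867 CPM and rose by 1.27 ± 0.051 with ACP5 and by 0.29 ± 0.052 with CD163. ATP6V0D2 and ATP6V0A4 had steeper slopes on ACP5 than CTSK, and TCIRG1 came after it. No test was made of the order of these slopes. CTSK (chr17:60587454-60594862) is the protein-coding neighbor of CTSS (chr17:60551720-60568999) and is overlapped by the noncoding gene LOC106559925, whose reads could be divided with it. The difference of the slopes was 0.98 ± 0.073 for CTSK and -1.36 ± 0.068 for CTSS.

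A call with 1 marker and not with the other does not show a difference, so the difference of the slopes was tested for each gene. It passed for 23 of the 27, with 16 genes steeper on ACP5 and 7 steeper on CD163, against 15.9% and 16.9% of all genes tested, which is 32.8% in either direction. The 16 were 14 V-ATPase subunits with CTSA and CTSV, and the 7 were ATP6V0A1, ATP6V0A2, CTSB, CTSC, CTSF, CTSH and CTSS. The largest differences were 2.19 ± 0.095 for ATP6V0D2 (adjusted p = 1.38e-52), 1.56 ± 0.133 for ATP6V0A4 (adjusted p = 5.09e-22) and -1.36 ± 0.068 for CTSS (adjusted p = 3.42e-45). No difference was detected for ATP6V0D1 (-0.01 ± 0.041), CTSD (0.02 ± 0.070), CTSO (-0.08 ± 0.057) and CTSZ (-0.07 ± 0.081). The median difference was 0.42 over the 17 V-ATPase genes and -0.13 over the 10 cathepsins, and -0.0015 over all genes tested. Per doubling of each marker in place of its SD, 15 genes were steeper on ACP5 and 7 on CD163, and CTSA was no longer called (0.015, adjusted p = 0.709). Over all 13420 genes tested these counts were 2357 and 2333. With the score of the osteoblast or of the T cell markers, described next, in the model, 4 genes were steeper on CD163 in place of 7, and those no longer called were ATP6V0A1, ATP6V0A2 and CTSF. The count over all genes also fell, from 2264 of 13420. It was 1011 of 13411 with the osteoblast score and 1903 of 13415 with the T cell score.

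Some markers of other cells moved with ACP5 or CD163 as well. Over all genes tested, 15% rose and 17.1% fell with ACP5, and 20.1% rose and 22.2% fell with CD163. Of the 9 osteoblast markers that passed the filter, 8 rose with ACP5, led by DMP1 (1.38 ± 0.272), SPP1 (1.18 ± 0.073) and IBSP (0.85 ± 0.185), and the mean score of the list had r = 0.48 with ACP5 (rho = 0.43, permutation p = 1e-05 for both, the smallest that 100000 resamples can give). With that score in the model, 19 of the 27 genes rose with ACP5 and none fell, and the slope of ATP6V0D2 was 2.24 ± 0.083. Of all 13411 genes tested in that model, 1769 rose and 1961 fell. All 5 T cell markers that passed the filter rose with CD163, led by GZMK (1.63 ± 0.169) and GZMB (1.39 ± 0.135), and their score had r = 0.62 with CD163 (rho = 0.63, permutation p = 1e-05 for both). The summed T cell list ranged from 3.53 to 4894 CPM. With the T cell score in the model, 9 genes in place of 17 rose with CD163, among them CTSS (0.94 ± 0.050), CTSC (0.62 ± 0.060) and CTSB (0.51 ± 0.045), and 21 rose with ACP5. The count over all genes fell too, with 1625 of 13415 rising with CD163 in place of 2697 of 13420. With ACP5, 2032 of all genes rose in place of 2009. Of the macrophage list, 5 of 15 genes rose with ACP5 and 1 fell, those that rose including CD68 (1.60 ± 0.052), CD14 (0.84 ± 0.051) and CSF1R (0.81 ± 0.045), which osteoclasts and their precursors are also known to express. Further lists moved with CD163. Of the neutrophil markers 4 of 5 rose, led by CSF3R (1.26 ± 0.127), and 1 fell, and of the endothelial markers 5 of 6 rose. Of the 2 adipocyte markers that passed the filter, FABP4, a gene of adipocytes and some macrophages, rose by 1.83 ± 0.230, and LPL did not pass (0.08). JCHAIN, a gene of plasma cells, rose by 0.63 ± 0.123, and was the only 1 of 6 B and plasma cell markers to pass the filter. Of the 7 skeletal muscle markers 4 rose, led by CKM (0.88 ± 0.303). With CD163 there also fell 4 of 9 osteoblast, 4 of 7 cartilage and 3 of 6 proliferation markers, whereas 1 osteoblast marker rose. With ACP5, 2 of 7 cartilage markers and 1 of 6 endothelial markers fell, the latter near the share of all genes that fell. The part of these further lists in the slopes was not tested. When the mean scores of the osteoclast and macrophage lists replaced ACP5 and CD163, 18 genes rose with the first and 13 with the second. Of all 13391 genes tested, 1909 and 2755 rose.

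Pearson's correlations on the log2 scale were computed for the 27 genes with ACP5, CD163 and the GS-1 score, 81 relations in all, and p-values adjusted over all genes are those of the slopes above. For ATP6V0D2 and ACP5, r was 0.95 and rho 0.92 (permutation p = 1e-05 for both, n = 186), and r was 0.95 without the 2 farthest tumors, 0.95 in COTC021 and 0.95 in COTC022. The deeper libraries gave 0.92 and the other 136 gave 0.96. Trial, ACP5 and CD163 together accounted for 90.6% of its variance. For ATP6V1A and ACP5, r was 0.83 and rho 0.88 (permutation p = 1e-05 for both), 0.85 in COTC021 and 0.82 in COTC022, and 0.83 in both groups of libraries and without the 2 farthest tumors. For CTSS and CD163, r was 0.89 and rho 0.88 (permutation p = 1e-05 for both), with 0.88 without the 2 farthest tumors, 0.85 in COTC021, 0.91 in COTC022, 0.91 among the 50 deeper libraries and 0.88 among the other 136. For ATP6V0A2, CTSO and ATP6V0E2 the same model accounted for 5.06%, 4.65% and 6.77% of the variance.

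**Figure D3:**
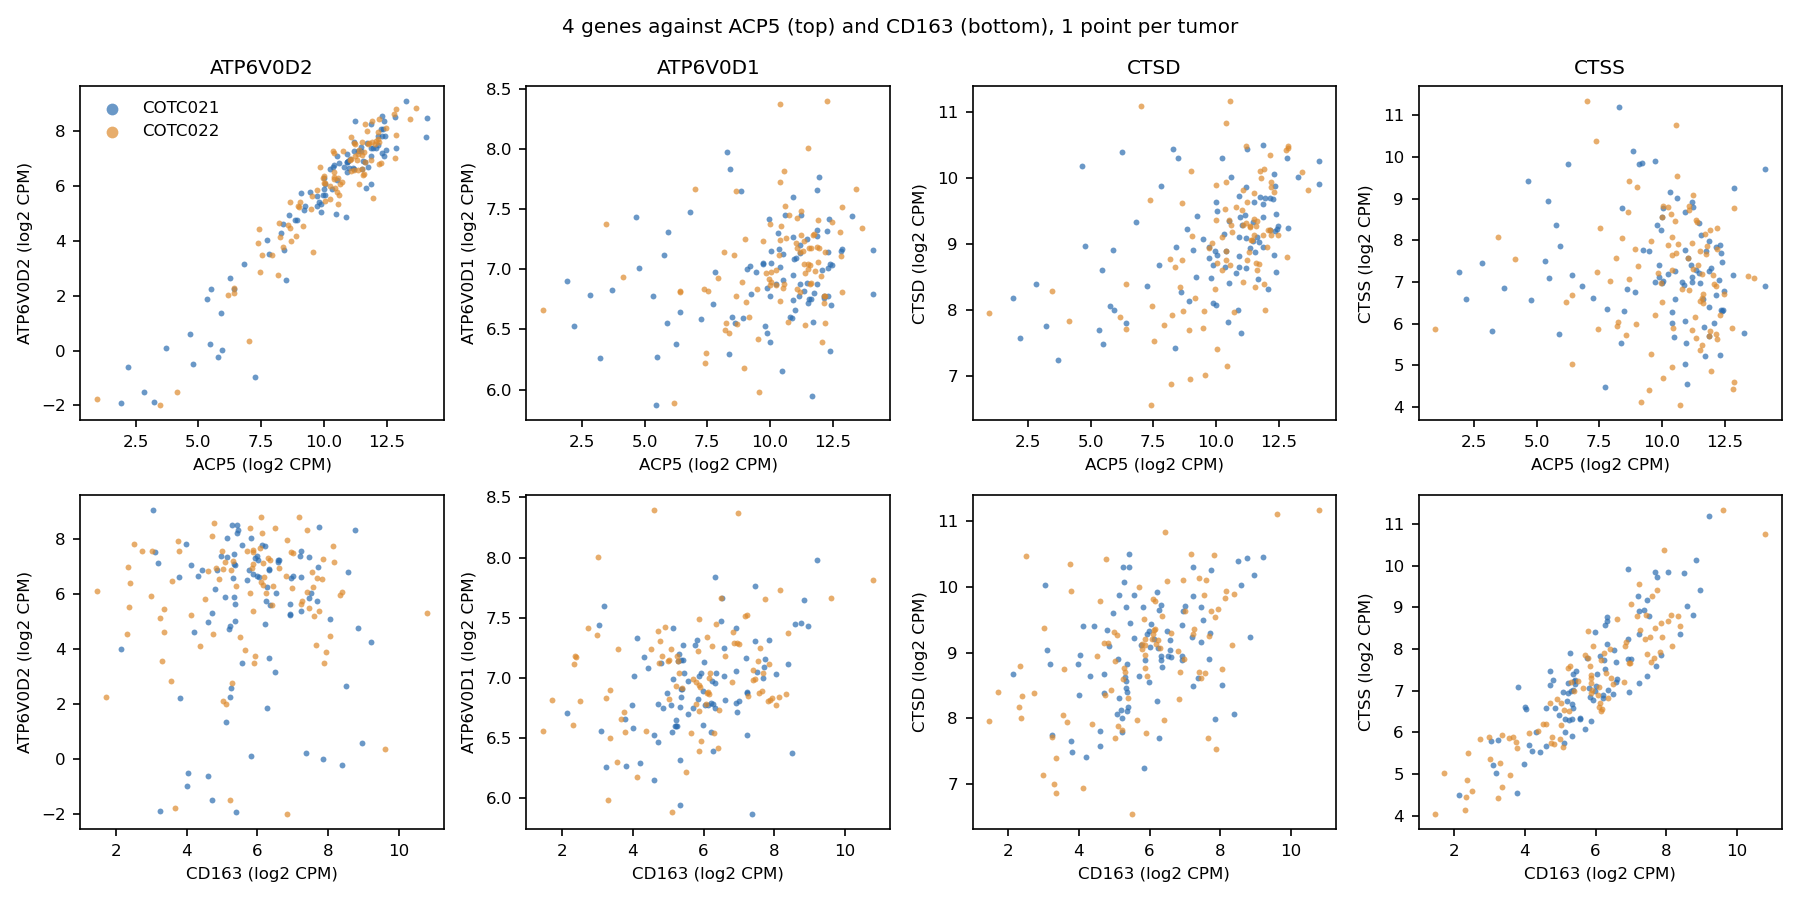
ATP6V0D2, ATP6V0D1, CTSD and CTSS (vertical axes, TMM-normalized log2 CPM) against ACP5 in the top row and CD163 in the bottom row, with 1 point per tumor and the trials in blue and orange. The points form a narrow band for ATP6V0D2 with ACP5 (r = 0.95) and for CTSS with CD163 (r = 0.89), and wide clouds for ATP6V0D1 with both markers (r = 0.26 and 0.28).

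The slopes were then compared between trials with an interaction term, since a gene may follow a marker in 1 trial only. None of the 27 genes passed for ACP5 or for CD163 with limma-voom, where 0% of all genes were called. At an unadjusted p under 0.05 the counts were 4 of the 27 for ACP5, against 577 of all 13420 genes (4.3%), and 0 of the 27 for CD163, against 526 (3.92%). With edgeR's quasi-likelihood fit, also none of the 27 passed. The interaction of ATP6V0D2, its slope in COTC022 minus that in COTC021, was -0.0057 ± 0.159 for ACP5 and 0.033 ± 0.114 for CD163. The spread of the markers differed between the subsets, from 2.11 to 2.73 for ACP5 and from 1.45 to 1.85 for CD163 as SDs on the log2 scale, so the differences within subsets are given per SD of each marker over all 186 tumors. That of ATP6V0D2 was 2.21 ± 0.148 in COTC021 and 2.18 ± 0.127 in COTC022, and that of CTSS was -1.38 ± 0.107 and -1.36 ± 0.089. In the 50 deeper libraries the difference for ATP6V0A4 was 1.22 ± 0.275, and in the other 136 it was 1.77 ± 0.148. The gap between these groups of libraries was not tested. All 23 genes with a called difference had the same sign in both trials and both groups of libraries, and 16 of them were called in all 4 subsets, among them CTSB, CTSC, CTSH and CTSS. ATP6V0A1 and ATP6V0A2 were called in none of the 4, and CTSF only among the 50 deeper libraries (-0.47 ± 0.128, adjusted p = 0.00936), its difference among the other 136 being -0.10 ± 0.084 (adjusted p = 0.432). CTSA stood at 0.030 ± 0.104 in the 50 deeper libraries and at 0.023 ± 0.065 in COTC021, neither of which passed, and at -0.046 in the former when the SDs within those libraries were used.

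**Figure D4:**
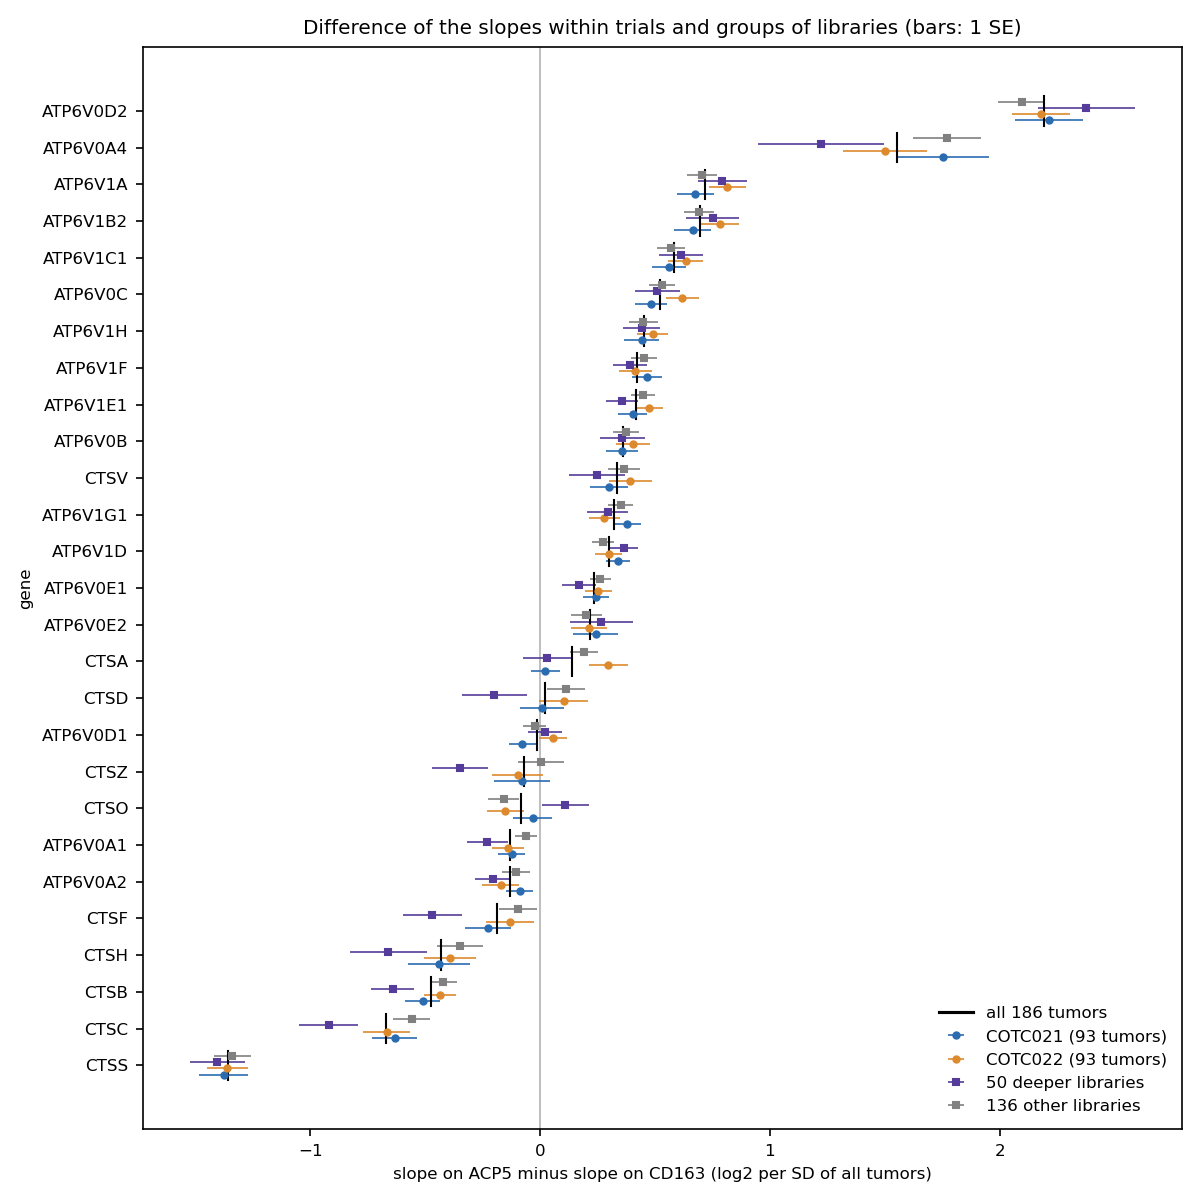
Slope on ACP5 minus slope on CD163 for the 27 genes, in log2 per SD of each marker over all 186 tumors with bars of 1 SE, within COTC021 (blue), COTC022 (orange), the 50 deeper libraries (purple) and the other 136 (grey), with black ticks for all 186 tumors. ATP6V0D2 and ATP6V0A4 lie to the right in all 4 groups, CTSS, CTSC, CTSB and CTSH lie to the left, and CTSA lies close to 0 in COTC021 and in the 50 deeper libraries.

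The GS-1 score, the mean z-score of the 27 GS-1 genes, was taken as a continuous measure. It had r = 0.85 with CD163 (rho = 0.86, permutation p = 1e-05 for both) and r = 0.047 with ACP5 (permutation p = 0.527), so slopes on it largely repeat those on CD163 and are no separate evidence. Of the 27 genes described here, 14 rose with the score and 2 fell, against 22.6% and 26.8% of all genes tested, which is 49.4% in either direction. The median slope was 0.13. Among the cathepsins 8 of 10 rose, led by CTSS with 1.3 ± 0.041 log2 per SD of the score (adjusted p = 1.2e-74), CTSC with 0.79 ± 0.048 (adjusted p = 1.55e-36) and CTSH with 0.67 ± 0.058 (adjusted p = 4.73e-22). CTSV fell by 0.24 ± 0.043 (adjusted p = 7.89e-07). Of the 17 V-ATPase genes, 6 rose and ATP6V0E2 fell, and the steepest rise was 0.18, for ATP6V0E1. ATP6V0D2 and ATP6V0A4 did not pass, with 0.15 ± 0.186 and 0.11 ± 0.134 (adjusted p = 0.52 and 0.498).

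The genes were next compared with each other. The correlation of ATP6V1A with ATP6V1B2, the 2 partners of the catalytic ring, was the highest of the 351 pairs (r = 0.93, rho = 0.94, permutation p = 1e-05 for both), with r = 0.93 in COTC021 and 0.94 in COTC022. The deeper libraries gave 0.92 and the other 136 gave 0.94. After the trial, ACP5 and CD163 were taken out, it was 0.78, also the highest. ATP6V0C with ATP6V1B2 and ATP6V0B with ATP6V0C followed a like course, from 0.90 to 0.72 and from 0.86 to 0.73. The median r of the 136 V-ATPase pairs went from 0.65 to 0.25. Among the 45 cathepsin pairs the median was 0.26, and the highest were CTSC with CTSS (0.77), CTSB with CTSS (0.77) and CTSB with CTSC (0.71), which were 0.36, 0.34 and 0.30 after the markers were taken out. CTSA with CTSD had r = 0.68 and 0.49 after that step, the highest remaining among cathepsins. The lowest pair was CTSS with CTSV (r = -0.39, rho = -0.35, permutation p = 1e-05 for both). Genes measured in the same libraries share depth and normalization, so these values are a description.

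**Figure D5:**
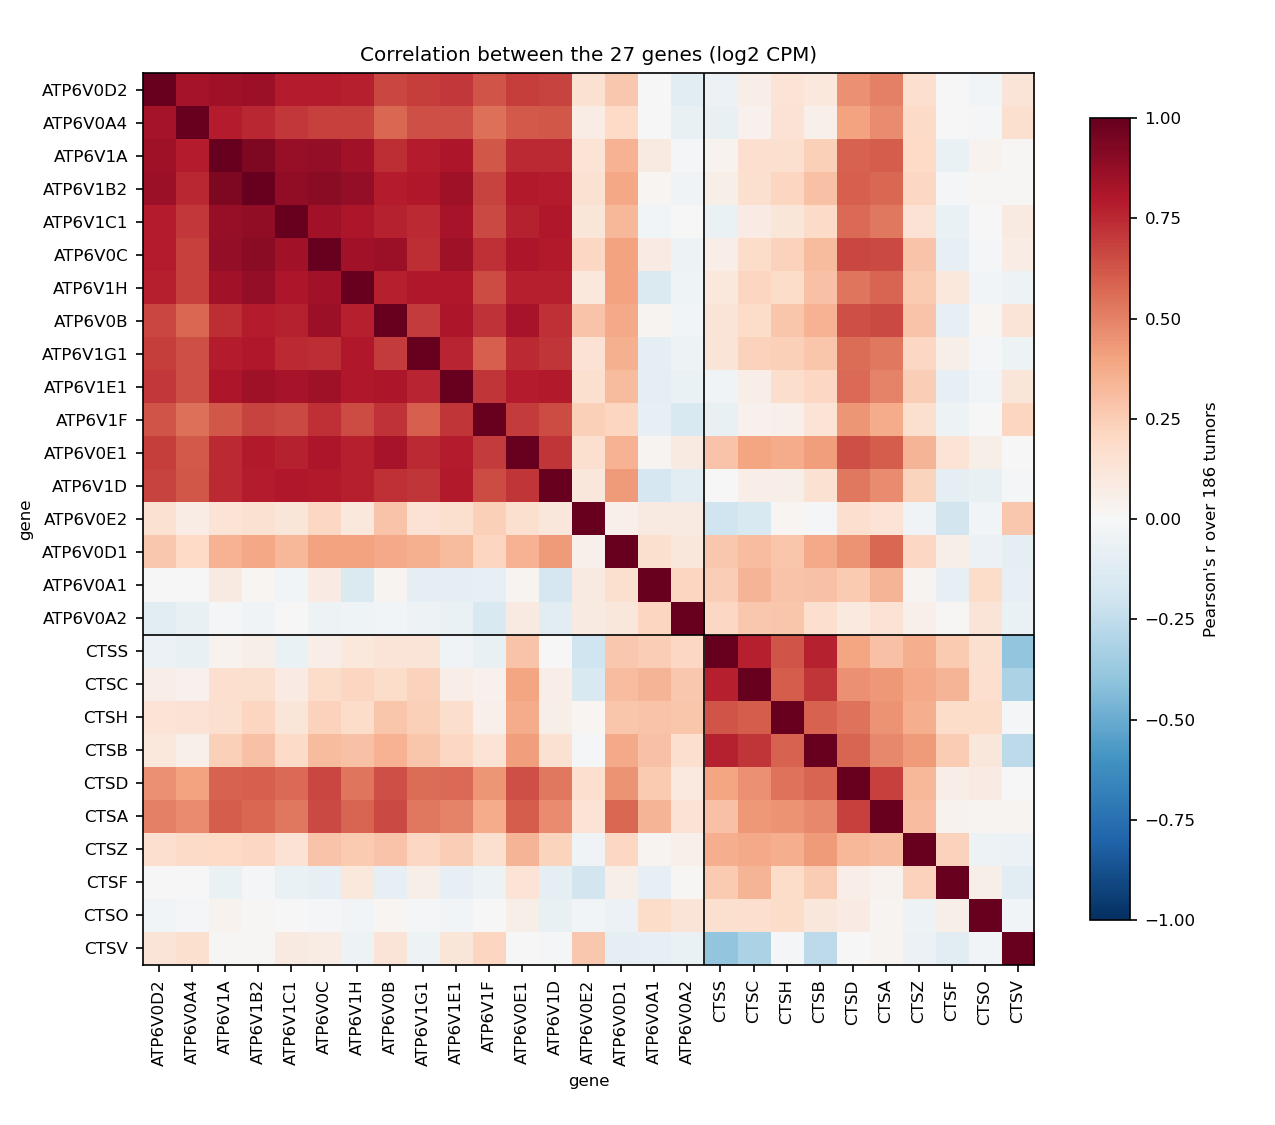
Pearson's r between the 27 genes over 186 tumors, from blue (-1) to red (1), with V-ATPase subunits ordered by their slope on ACP5 and cathepsins by their slope on CD163, and black lines between the families. ATP6V0E2, ATP6V0D1, ATP6V0A1 and ATP6V0A2 stand outside the red block of the other 13 subunits, and CTSA and CTSD are the cathepsins with the reddest cells against that block.

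Other genes of the lysosome were counted in the same fits. Of 15 further V-ATPase genes that passed the filter, namely accessory, assembly and interacting proteins together with TCIRG1, 9 rose with ACP5 and none fell, while 4 rose and 1 fell with CD163. ATP6AP1 and ATP6AP2, which encode accessory proteins of the pump, rose with ACP5 by 0.60 ± 0.038 and 0.47 ± 0.038 and did not pass with CD163. DMXL2, a subunit of a complex that promotes pump assembly, was steeper on CD163 (difference of the slopes -0.29 ± 0.086, adjusted p = 0.00478). Of 34 lysosomal hydrolases, 25 rose and 1 fell with ACP5, and 21 rose and 1 fell with CD163. The difference was positive for 13 of them, such as PLA2G15 (0.73 ± 0.060), a lysosomal phospholipase, and negative for 7, such as LIPA (-0.66 ± 0.080), the lysosomal acid lipase. Of 27 membrane proteins and cofactors, 14 rose and 1 fell with ACP5 and 16 rose and 2 fell with CD163. SLC11A1, a metal transporter of phagosomes, had the largest difference of these (-1.16 ± 0.083). The counts that rose may be read against the 15% and 20.1% of all genes that rose with ACP5 and CD163. Those that fell may be read against 17.1% and 22.2%. The difference was positive for 15.9% and negative for 16.9% of all genes, and the 7 of 34 hydrolases are not far from the latter.

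The cystatins and serpins inhibit cathepsins or related proteases. Of the 4 that passed the filter, 3 rose with each marker. CSTB, a cytosolic cystatin, rose by 0.59 ± 0.041 with ACP5 and 0.28 ± 0.040 with CD163, and was steeper on ACP5 (adjusted p = 4.15e-06). CST7, a cystatin of leukocytes that restrains CTSC, rose by 0.25 ± 0.082 and 0.71 ± 0.072, and was steeper on CD163 (adjusted p = 0.000415). The transcription factors of the MITF and TFE family activate lysosomal genes, and 3 of 4 rose with each marker. MITF rose with ACP5 by 0.26 ± 0.058 and TFEC by 0.48 ± 0.064. TFEC rose with CD163 by 0.87 ± 0.058, steeper than with ACP5 (adjusted p = 0.000122), and no difference between the markers was detected for MITF, TFEB or TFE3.

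The genes that did not pass the filter were also fitted once without it. CTSG had a slope of 0.72 ± 0.139 on the GS-1 score (limma-voom adjusted p = 5.87e-06) and CTSE one of 0.43 ± 0.102 (adjusted p = 0.000329). ATP6V1G3 passed as well, at 0.15 ± 0.046 (adjusted p = 0.00575). So did ATP6V1B1 and ATP6V1C2, at -0.29 ± 0.102 and -0.37 ± 0.133 (adjusted p = 0.0209 and 0.0226). Of all 29987 genes in that fit, 4270 rose and 4277 fell. ATP6V1C2 fell with CD163 by 0.43 ± 0.127 (adjusted p = 0.00604), and ATP6V1B1 had a slope of -0.34 ± 0.110 (adjusted p = 0.0125). CTSE and ATP6V1G3 rose with CD163, by 0.36 ± 0.101 and 0.13 ± 0.045 (adjusted p = 0.00297 and 0.0266). Of all 30012 genes in that fit, 3809 rose and 3364 fell. These slopes rest on few counts, with a median of 3 for CTSG, 2 for CTSE, 9 for ATP6V1C2 and 0 for ATP6V1B1 and ATP6V1G3. ATP6V1G3 reached at most 3 counts and was at 0 in 170 tumors.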

How the data were processed

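Total RNA of 186 tumors was made into stranded mRNA libraries and sequenced. Per the labels and the study's methods, the authors trimmed the reads with Cutadapt, mapped them with STAR 2.7.0f to the canine genome GSD_1.0 and deposited expected counts per gene from RSEM 1.3.1, which divide reads shared between genes and are not normalized. Of the values, 3.07% were not whole. They were rounded. Of 198 columns, 186 match a sample and 12 were not used. Precision is limited by depth, from 6587631 to 27420857 counts.

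Low genes were removed with filterByExpr of edgeR 4.0.16, with a minimum count of 10, a minimum proportion of 0.5 and large.n at 5. TMM factors entered voom of limma 3.58.1, run under R 4.3.3. Models held the trial, the trial with the z-scores of ACP5 and CD163 (182 residual degrees of freedom), or the trial with the GS-1 score. Benjamini-Hochberg adjustment ran over all genes tested, at 0.05. Log2 CPM used a prior count of 2. CPM quoted as levels are on the library total. Permutation tests were two-sided with 100000 resamples, in Python 3.11.15 with numpy 2.4.6, scipy 1.17.1 and pandas 2.3.3, and figures used matplotlib 3.10.9. Every gene that the rule takes is named. Of the lists, those with the largest slopes are named. Alternatives used edgeR's quasi-likelihood fit, DESeq2 1.42.0, another scaling, no filter and subsets of tumors, with the markers scaled within the subset or over all tumors. The genes and lists were chosen with earlier results of these data known. The clusters and outcomes of the study are not in the labels and were not used here. No sequences were used here.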

Additional observations from a re-analysis of the deposited data

How the results depend on the processing

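Of 1782 values of single genes under the alternatives, 1595 kept their side of the threshold, and their direction where they were called. Changes of sign in values called in neither fit were not counted. Of the rest, 161 were no longer called and 20 became called. Another 6 changed sign and were called in the fit reported or in the alternative. Among these 6 were CTSB with ACP5 in the 50 deeper libraries (-0.0058) and with list scores (-0.016). CTSH (-0.0084) and CTSZ (-0.15) with ACP5 and CTSA in the difference of the slopes (-0.046) changed in those libraries, with the markers scaled within them. The last was ATP6V0D2 with CD163 for list scores (-0.15, limma-voom adjusted p = 0.0112). The cause was not tested.

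The count of genes that fell with ACP5, 1 in the fit reported, was 0 without CD163 in the model, in each group of libraries and without the filter. It was also 0 with the osteoblast score, with RLE scaling, within each trial and without the 2 tumors farthest from the median of each marker. Over all genes tested, the number that fell, 2290 in the fit reported, ranged in these from 331 in the 50 deeper libraries to 2450 without the filter. The count that rose with CD163, 17, was 9 in the 50 deeper libraries, 11 in the others, 9 with the T cell score and 8 within COTC021. Of all genes tested, 1443 of 14121, 2176 of 13270, 1625 of 13415 and 1515 of 13333 rose in these, in place of 2697 of 13420. In the 50 deeper libraries 28 of the genes described here passed the filter, in place of 27. The count that fell with CD163, 1, was 2 with DESeq2, edgeR, the 136 other libraries and the farthest tumors left out, and 3 without the filter and with list scores. Over all genes tested it ranged in these from 1677 in the 136 other libraries to 3553 with DESeq2, in place of 2982. The count steeper on CD163, 7, was 4 in the 136 other libraries, with the osteoblast score, with the T cell score and within each trial, with the markers scaled within the subset or over all tumors. Over all genes tested it ranged in these from 1011 with the osteoblast score to 1903 with the T cell score, in place of 2264. The count that fell with the GS-1 score, 2, was 4 without the filter and 1 within COTC021. Of all genes tested, 4277 of 29987 and 1766 of 13308 fell in these, in place of 3595 of 13395. Fewer tumors were fitted in the subsets, and more genes without the filter. The osteoblast score, the T cell score, the slopes per doubling and the scaling of subsets over all tumors were chosen after seeing the data. All counts of genes that rose with ACP5 or were steeper on it stayed within 1.5 times those reported. No paired analysis was possible because no dog number is shared between the trials.

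Depth limits the 7 genes that did not pass the filter. The tumors were separate dogs, and no repeat library of 1 tumor was analysed, so technical and biological spread cannot be told apart.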
